A study of Mus musculus with 15 samples.

Results

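Dividing cells switch on a fixed set of genes for copying DNA and for mitosis, and 40 of them were followed in mouse hearts from a study of renalase (RNLS) in chronic kidney disease (CKD). The genes were a set list of S-phase and mitosis genes, and those with 10 or more counts in 3 or more libraries were kept. By that rule 38 of the 40 entered the tests, out of 17447 genes in the count table and 13064 tested. The hearts came from male C57BL/6J mice, taken 18 weeks after surgery, with 3 libraries in each of 5 groups. WTSHAM mice were wild type and had the sham operation, and no vector is named for them in the sources used here. WTCKD mice were wild type, had CKD made by removing most of the kidney tissue, and received the vector. WTCKD + RNLS mice differed from them in receiving AAV9-cTnT-RNLS, a virus that carries RNLS under a cardiomyocyte promoter. KOCKD mice were Rnls-/- (a TALEN-made germline knockout) with CKD and the vector, and KOCKD + RNLS mice were the same knockouts with CKD and AAV9-cTnT-RNLS. All mice entered surgery as young adults, and no knockout sham group was analysed here. Because cTnT is active in cardiomyocytes, RNLS from the virus is meant to be made in those cells. Which cells of the heart made it was not measured here. Rnls itself was not among the genes analysed here, so neither the genotype nor the virus was checked from these counts.

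In a cycling cell, cyclin D with CDK4 or CDK6 and then cyclin E with CDK2 release E2F factors, which switch on the genes that build the replication fork. Later, cyclin A and cyclin B with CDK1, together with FOXM1, drive the genes of the mitotic spindle, and the anaphase-promoting complex with CDC20 ends mitosis. Adult cardiomyocytes seldom divide, so these transcripts in an adult heart are usually assigned to a small number of cycling endothelial cells, fibroblasts and immune cells. Whole-heart RNA was measured, and fewer cycling cells cannot be told apart from less of a transcript in each cell.

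Libraries held 10480788 to 13424078 counts. Heart identity was clear, since 8 of 8 cardiomyocyte markers were tested and together made up 86400 to 117000 CPM (read counts scaled to library size, here with library sizes scaled by edgeR's TMM method) in each library. One library stood apart in the genes followed here. WTSHAM replicate 1 was the lowest of its group in 18 of the 19 mitotic genes tested, while it was the lowest of its group in 38.1% of all genes tested. Results that rest on the sham group are therefore given with and without it. The labels do not state that replicates were separate animals in so many words, so p-values measure the spread between these libraries.

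The 40 genes fell into 4 roles. Genes of the G1 phase (9 genes) and of DNA replication (10 genes) were much more abundant per unit of transcript length than genes of mitosis. On the deposited FPKM scale (fragments per unit of length and of depth), which allows levels of different genes to be compared, mean levels over the 15 libraries had a median of 3.85 in the G1 role and of 2.56 in the replication role. The mitotic cyclins, kinases and FOXM1 (9 genes) had a median of 0.309 FPKM, and the chromosome and spindle genes (12 genes) one of 0.504 FPKM. In the G1 role Cdk4, the kinase partner of cyclin D, was highest with a mean of 33.7 FPKM. Pcna, the sliding clamp of DNA polymerase, led the replication role at 28 FPKM. Cdc20, the activator of the anaphase-promoting complex, led the mitotic regulators at 0.87 FPKM, and Cenpf, a large kinetochore protein, led the spindle role at 2.12 FPKM. The 2 genes that did not pass the rule were mitotic kinases. Plk1 had 0 to 11 counts in a library and reached 10 counts in 2 of 15, and Bub1 had 0 to 13 counts and reached 10 in 1. Ccnb1, Cdk1, Aurkb and Birc5 passed without any library of the groups that received the virus at 10 counts, so their low values there were part of how they entered the tests.

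Promoter motifs of the mitotic genes and of the other members differed in how often they occurred. RefSeq promoters (GRCm38.p6, 250 bases before to 50 bases after the start) matched 31 of the 40 genes, of which 16 were mitotic. The windows were searched on both strands for CCAAT, the letters bound by NF-Y, for the cell cycle homology region (CHR, here TTTGAA or TTCGAA, bound by the MuvB core that DREAM, B-MYB and FOXM1 complexes share), and for the E2F letters TTTCCCGC, TTTGGCGC, TTTCGCGC and TTTGCCGC. TTCGAA reads the same on both strands and was counted once, and no printed match overlaps another. A CHR stood in 12 of 16 mitotic promoters (75%), in 2 of 15 of the other members (13.3%) and in 21.7% of all 27025 genes. All 12 of those mitotic promoters held a CCAAT as well, a pairing found in 8.61% of all genes. CCAAT alone was in 87.5% of the mitotic promoters, 66.7% of the other members and 41.1% of all genes. The E2F letters showed the opposite split, with 1 of 16 mitotic promoters (6.25%), 5 of 15 others (33.3%) and 2.6% of all genes. A match is a description of the sequence and not a measured binding site.

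The promoters of 6 genes on which the results turn are printed 5′ to 3′ on the strand of the gene, with CCAAT, CHR and E2F letters in capitals on either strand. Top2a (chr11:99024140-99024439, minus strand), Prc1 (chr7:80294201-80294500, plus strand), Cdc20 (chr4:118437294-118437593, minus strand) and Mki67 (chr7:135716330-135716629, minus strand) are shown as mitotic genes that were lower with the virus. Cenpf (chr1:189688037-189688336, minus strand) is shown because its values went the other way, and Mcm3 (chr1:20820263-20820562, minus strand) as a replication gene with E2F letters.
Top2a: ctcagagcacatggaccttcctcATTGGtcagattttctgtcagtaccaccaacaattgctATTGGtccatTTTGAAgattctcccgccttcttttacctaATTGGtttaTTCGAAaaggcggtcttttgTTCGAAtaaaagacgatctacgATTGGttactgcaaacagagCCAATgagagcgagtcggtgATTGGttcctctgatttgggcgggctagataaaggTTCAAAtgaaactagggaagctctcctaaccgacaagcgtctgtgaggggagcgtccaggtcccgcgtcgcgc
Prc1: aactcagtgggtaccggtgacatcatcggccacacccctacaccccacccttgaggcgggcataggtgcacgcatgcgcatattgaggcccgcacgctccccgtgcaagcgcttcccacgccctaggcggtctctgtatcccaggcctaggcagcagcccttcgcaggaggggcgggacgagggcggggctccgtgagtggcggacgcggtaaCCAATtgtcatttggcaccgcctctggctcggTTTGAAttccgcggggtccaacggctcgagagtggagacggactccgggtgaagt
Cdc20: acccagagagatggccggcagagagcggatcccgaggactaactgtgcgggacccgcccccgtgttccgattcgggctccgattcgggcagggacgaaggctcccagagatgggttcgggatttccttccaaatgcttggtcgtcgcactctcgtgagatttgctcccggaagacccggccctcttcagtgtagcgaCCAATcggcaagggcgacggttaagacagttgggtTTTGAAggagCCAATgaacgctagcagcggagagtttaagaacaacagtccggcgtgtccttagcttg
Mki67: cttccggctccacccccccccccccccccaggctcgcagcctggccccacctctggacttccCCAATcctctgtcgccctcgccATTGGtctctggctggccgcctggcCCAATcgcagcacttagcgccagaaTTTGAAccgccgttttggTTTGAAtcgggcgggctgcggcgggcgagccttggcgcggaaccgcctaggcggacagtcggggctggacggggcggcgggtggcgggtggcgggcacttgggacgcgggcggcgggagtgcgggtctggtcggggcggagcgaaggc
Cenpf: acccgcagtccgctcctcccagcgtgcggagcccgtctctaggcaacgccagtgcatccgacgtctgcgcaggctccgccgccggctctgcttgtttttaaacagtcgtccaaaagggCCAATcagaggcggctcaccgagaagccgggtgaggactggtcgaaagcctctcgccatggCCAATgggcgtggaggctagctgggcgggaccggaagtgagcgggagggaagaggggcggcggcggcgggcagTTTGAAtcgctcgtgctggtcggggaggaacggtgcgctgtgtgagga
Mcm3: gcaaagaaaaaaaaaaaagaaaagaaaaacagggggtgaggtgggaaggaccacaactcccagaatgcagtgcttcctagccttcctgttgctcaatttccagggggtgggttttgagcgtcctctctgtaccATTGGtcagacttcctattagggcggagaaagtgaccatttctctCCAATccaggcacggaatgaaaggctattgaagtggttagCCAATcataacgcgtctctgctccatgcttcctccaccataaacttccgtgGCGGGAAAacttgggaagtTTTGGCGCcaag
Counted from the start, with the first base of the match as its position, TTTGAA stood at -18 in Cdc20, at -116 and -98 in Mki67 and at -5 in Prc1, each time downstream of a CCAAT. Top2a held 6 CCAAT and 4 CHR matches. Cenpf held both elements too, with its TTTGAA at position 3, just inside the transcript. Mcm3 had no CHR but 3 CCAAT and 2 E2F matches. Birc5 held none of these letters in its window.

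The comparison of WTCKD + RNLS with WTCKD asks what cardiac RNLS did in CKD hearts with a normal Rnls gene. In the count table, column names of all libraries with the virus begin with WM or RM. Those of WTCKD begin with wm and those of KOCKD with s. Virus and column names changed together in both genotypes, so the virus and what the names stand for cannot be told apart. Mitotic genes were lower across the role. Of 19 tested, 18 had a log2 fold change below 0, with a median of -1.20 against 0.01 over all genes tested. Among the 19 are Ccnb1, Cdk1, Aurkb and Birc5, which passed the filter with no library with the virus at 10 counts. Their low values with the virus are therefore not independent of the filter. With no filter on counts, 20 of 21 were below 0, with a median of -1.19. Over all 38 members, 4 fell at an adjusted p under 0.05 (Benjamini-Hochberg over all genes, edgeR's quasi-likelihood test) and 0 rose, where 2.28% of all genes fell and 2.18% rose.
Top2a, the topoisomerase that untangles sister chromatids (mm9 chr11:98854257-98885503), had 43, 62 and 53 counts in the WTCKD libraries, or 3.63, 5.69 and 4.51 CPM. In the WTCKD + RNLS libraries it had 10, 23 and 16 counts, or 0.834, 2.14 and 1.22 CPM. The groups did not overlap, and Top2a fell by 1.73 on the log2 scale (SE 0.42, adjusted p = 0.0268, edgeR). Its exons share 122 bases with a small nucleolar RNA on the same strand.
Prc1, which bundles the microtubules of the central spindle (mm9 chr7:87439336-87461145), went from 1.69, 3.49 and 3.66 CPM to 0.334, 1.21 and 0.23 CPM. This was the largest fall among the members called here, with a log2 fold change of -2.35 (SE 0.53, adjusted p = 0.0197, edgeR), but it rested on 101 counts in the 3 WTCKD libraries against 20 in the 3 with the virus.
Mki67, the coat protein of mitotic chromosomes behind the Ki-67 stain (mm9 chr7:142881471-142908062), had 85, 111 and 127 counts in WTCKD and 31, 50 and 29 counts in WTCKD + RNLS. As CPM these were 7.19, 10.2 and 10.8 against 2.59, 4.64 and 2.22. Every library with the virus was below every library without it, yet the fitted change of -1.59 (SE 0.59) did not pass the correction (adjusted p = 0.141, edgeR). Mki67 was called when WTSHAM replicate 1 was left out of the shared fit and when the fit held only the 6 libraries compared, and the same held in knockouts.

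All other mitotic genes tested except Cenpf were also below 0. By the rule that the study used to select genes, a log2 fold change beyond 0.32 with an unadjusted p under 0.05, 16 of the 38 members were lower and 1 was higher, against 8.1% lower and 6.29% higher among all genes. Of the 16, 11 were mitotic. Besides Top2a, Prc1 and Mki67 they were Cdk1, the kinase of mitotic entry (-1.84), its cyclin partner Ccna2 (-1.47), the spindle kinase Aurka (-1.32), the transcription factor Foxm1 (-1.76), Cdc20 (-0.71), the kinesins Kif20a (-0.88) and Cenpe (-1.25), and the microtubule protein Nusap1 (-1.06), all as log2 fold changes. The mitotic genes that passed neither rule were Ccnb1 (-1.54), Ccnb2 (-1.20), Aurkb (-1.11), Tpx2 (-1.08), Birc5 (-0.72), Bub1b (-0.67) and Kif11 (-0.67). Cdc20 had 23, 35 and 30 counts in WTCKD and 15, 18 and 23 in WTCKD + RNLS, and Birc5 had 7, 6 and 11 against 5, 4 and 6. The groups did not overlap in 19 members that were lower and in 1 that was higher, against 10.8% and 10.4% of all genes. The number called depended on single libraries. It was 1 (Ccnd1) when WTCKD replicate 2 or either of replicates 1 and 3 of WTCKD + RNLS was left out, and 6 when replicate 2 of WTCKD + RNLS was, while the median of the mitotic genes stayed between -0.97 and -1.43 under all these omissions of 1 WTCKD or WTCKD + RNLS library.

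**Figure D1:**
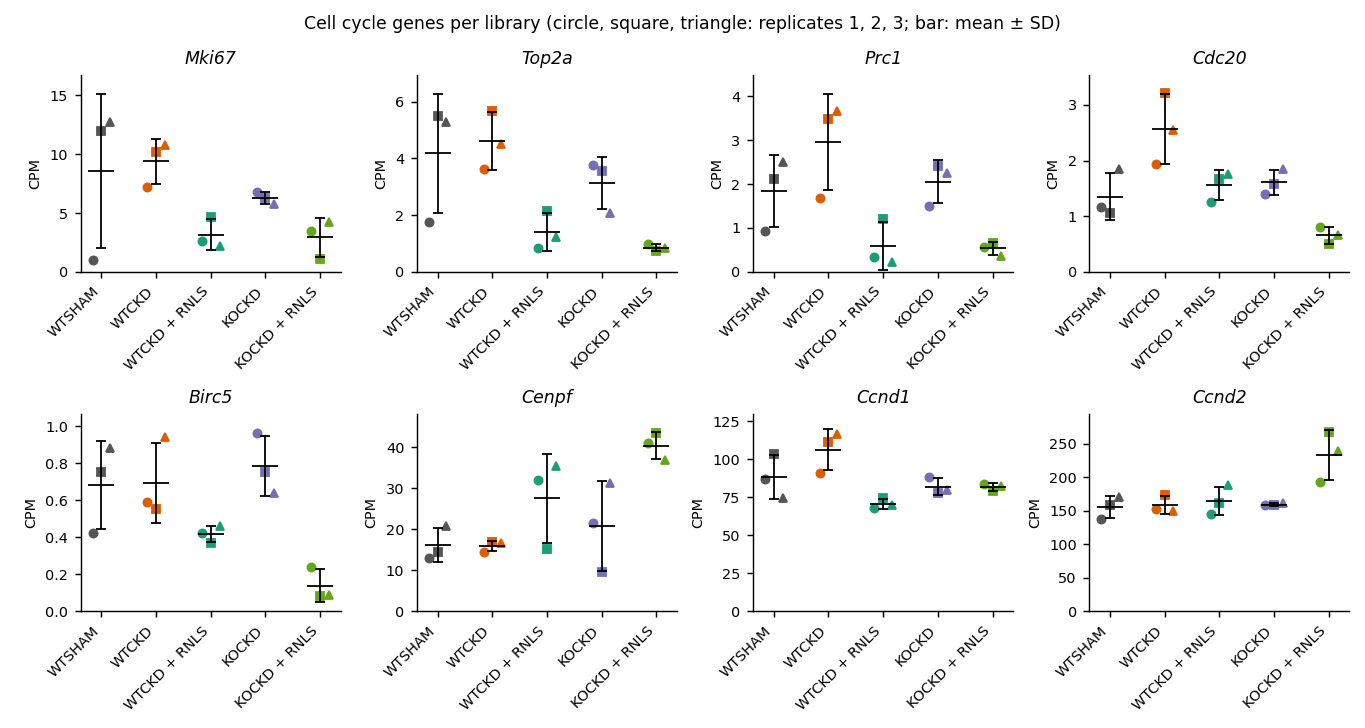
CPM of 8 cell cycle genes in each of the 15 libraries, by group, with circle, square and triangle for replicates 1, 2 and 3 and the bar for mean ± SD of 3 libraries. Mki67, Top2a and Prc1 sat lower in both groups with the virus than in their CKD controls, WTSHAM replicate 1 sat apart at 1 CPM of Mki67, and Cenpf was highest in KOCKD + RNLS at 36.7 to 43.4 CPM.

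The same comparison in knockout hearts, KOCKD + RNLS with KOCKD, again had lower values of the mitotic genes. The median log2 fold change of the 19 mitotic genes was -1.11, with 17 below 0, against -0.01 over all genes. Ccnb1, Cdk1, Aurkb and Birc5, with no library with the virus at 10 counts, were again among the 19. With no filter on counts, 19 of 21 were below 0, with a median of -1.1. Of the 38 members 4 fell, all of them mitotic, and 1 rose at an adjusted p under 0.05 (edgeR), while 6.98% of all genes fell and 9.07% rose. By this fit 2097 genes were called here against 583 in wild-type hearts, so 4 of 38 stands against a higher background. In a fit with offsets for gene length the numbers were 711 and 739.
Top2a had 43, 38 and 26 counts in KOCKD and 12, 9 and 9 in KOCKD + RNLS. Its level went from 3.76, 3.54 and 2.09 CPM to 0.975, 0.745 and 0.843 CPM without overlap, a log2 fold change of -1.85 (SE 0.46, adjusted p = 0.0141, edgeR). Top2a and Prc1 were the 2 members called lower in both genotypes.
Prc1 went from 1.49, 2.42 and 2.26 CPM to 0.569, 0.662 and 0.375 CPM (log2 fold change -1.91, SE 0.55, adjusted p = 0.0281, edgeR).
Cdc20 was at 1.40, 1.58 and 1.85 CPM in KOCKD and at 0.813, 0.496 and 0.656 CPM with the virus. It fell by 1.29 on the log2 scale (SE 0.36, adjusted p = 0.026, edgeR), with 53 of its exon bases shared with Elovl1 on the other strand.
Birc5, the survivin subunit of the complex that corrects chromosome attachment, had the fewest counts of the genes called. It reached 10 counts in 4 of 15 libraries, of which 1 was KOCKD and 0 had the virus. Birc5 thus entered through libraries outside this comparison and was not tested when the fit held only the 6 libraries compared. It had 11, 8 and 8 counts in KOCKD and 3, 1 and 1 counts in KOCKD + RNLS, or 0.962, 0.745 and 0.644 CPM against 0.244, 0.0827 and 0.0937 CPM. The edgeR fit gave -2.38 (SE 0.57, adjusted p = 0.0124), and the ratio of the summed counts, 5 against 27, was 0.183 with an exact 95% interval of 0.0549 to 0.481 that covers counting error only. DESeq2 gave -2.46 for Birc5 but no adjusted p, since its own filter on low counts left out 11 of the 38 members here.
Mki67 had 78, 67 and 72 counts in KOCKD and 43, 13 and 45 in KOCKD + RNLS (6.82, 6.24 and 5.80 CPM against 3.50, 1.08 and 4.22 CPM). The groups did not overlap, but the 3 libraries with the virus differed widely and the change of -1.11 (SE 0.61) had an adjusted p of 0.224 (edgeR).

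By the second rule 8 members were lower and 3 higher in KOCKD + RNLS, against 10% and 12.2% of all genes. All 8 were mitotic, namely the 4 above with Ccna2 (-1.44), the mitotic cyclins Ccnb1 (-2.18) and Ccnb2 (-1.77), and Cdk1 (-1.12). Ccnb1 had 9, 6 and 4 counts in KOCKD and 4, 0 and 0 in KOCKD + RNLS. Ccnb2 had 8, 6 and 7 counts against 5, 0 and 1. Neither cyclin reached 10 counts in any of these libraries, so both entered the tests through libraries outside this comparison. Groups did not overlap in 11 members that were lower and 4 that were higher, against 20% and 20.6% of all genes. Among the others, Aurkb (-1.82), Kif11 (-1.11), Foxm1 (-1.09), Tpx2 (-0.67), Kif20a (-0.64) and Aurka (-0.38) were below 0 without passing either rule. Bub1b (-0.01), Cenpe (-0.02) and Nusap1 (0.02) had log2 fold changes near 0, where wild-type hearts had -0.67, -1.25 and -1.06. The number of members called was 1 (Ccnd2) without KOCKD + RNLS replicate 2, 2 (Birc5 and Ccnd2) without KOCKD replicate 2, and 3 (Birc5, Ccnd2 and Top2a) without KOCKD + RNLS replicate 3. With only the 6 libraries compared in the fit it was 8, Mki67 among them. Leaving out any 1 of these 6 libraries kept the mitotic median between -1.03 and -1.48.

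**Figure D2:**
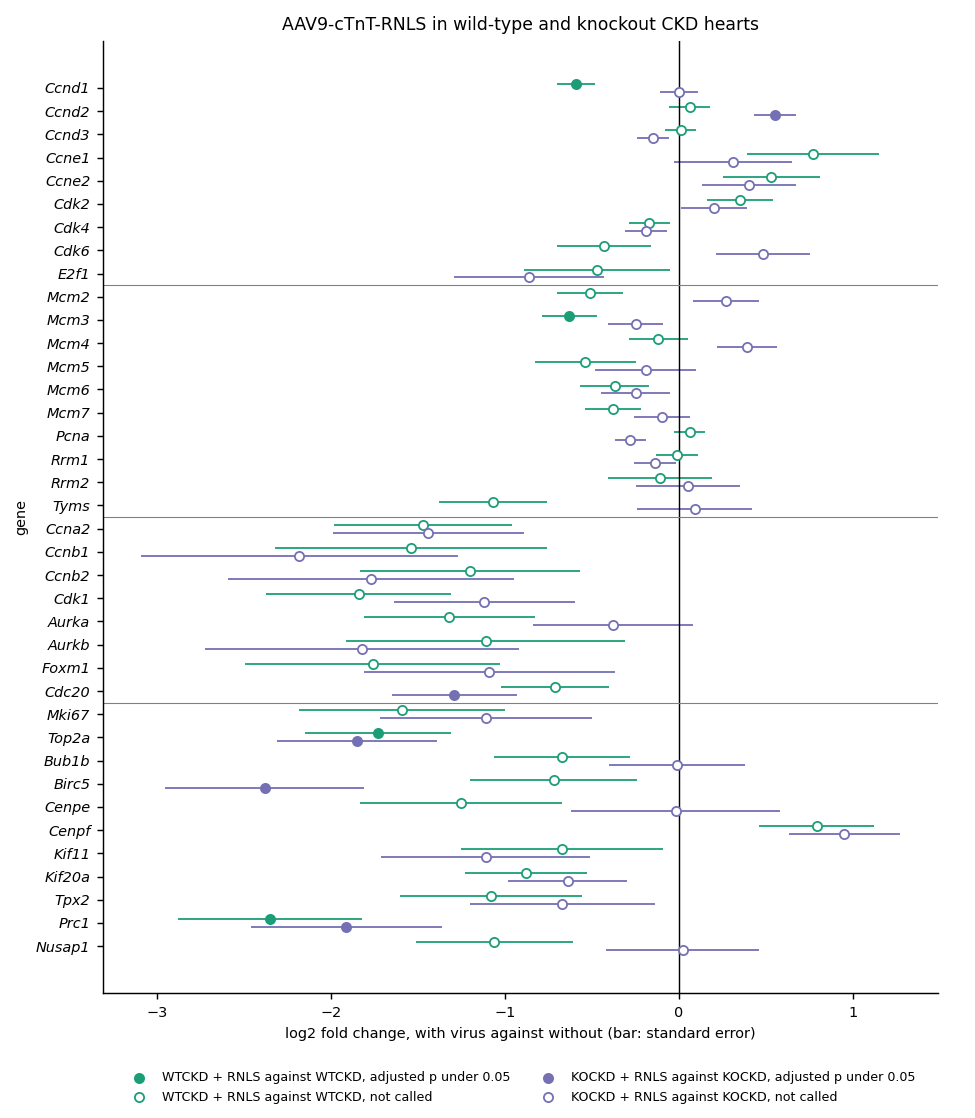
Log2 fold change with the virus against without it for the 38 genes tested, in wild-type (green) and knockout (purple) CKD hearts, with bars for the standard error, filled points for an adjusted p under 0.05 and lines between the 4 roles. Points of the 2 lower roles lie left of 0 in both genotypes except Cenpf (0.79 and 0.95) and Nusap1 in knockouts (0.02), while the G1 and replication genes lie on both sides of 0.

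Cenpf did not move with its role. It had 171, 183 and 194 counts in WTCKD and 382, 163 and 463 in WTCKD + RNLS, or 14.5, 16.8 and 16.5 CPM against 31.9, 15.1 and 35.4 CPM. Replicate 2 of the group with the virus stayed at the control level while the other 2 were about as high as each other. In KOCKD the counts were 245, 103 and 389 (21.4, 9.60 and 31.3 CPM), and in KOCKD + RNLS they were 503, 524 and 392 (40.9, 43.4 and 36.7 CPM), without overlap. Log2 fold changes were 0.79 (SE 0.33, adjusted p = 0.19, edgeR) and 0.95 (SE 0.32, adjusted p = 0.0554, edgeR), so neither passed the correction, and both passed the second rule. In knockouts Cenpf was called higher with a replicate block, with no filter, with only the 6 libraries compared, without WTSHAM replicate 1 and without KOCKD replicate 3. Cenpf has the second longest transcript of the 40 genes by the length implied in the FPKM values, 11365 bases. In a fit with offsets for gene length, its values were 0.68 and 0.65 (adjusted p = 0.184 and 0.187, edgeR).

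**Figure D3:**
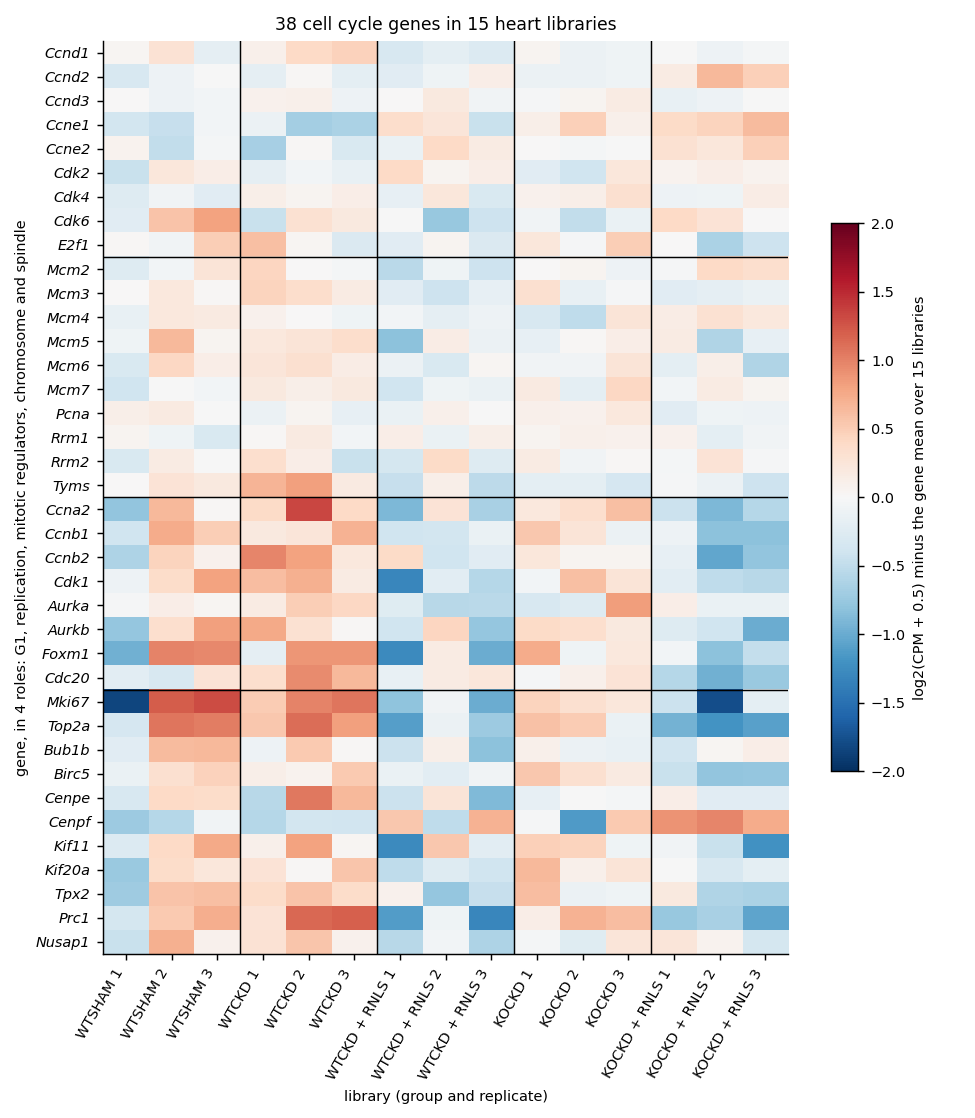
Each row is 1 of 38 genes and each column 1 of 15 libraries, with colour for log2(CPM + 0.5) minus the mean of the gene over all libraries. The 2 lower blocks, the mitotic genes, are mostly red in WTCKD and in WTSHAM replicates 2 and 3, blue throughout in WTSHAM replicate 1 and mostly blue in both groups with the virus. Cenpf is blue in WTSHAM and WTCKD and red in KOCKD + RNLS.

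G1 and replication genes lay closer to 0 than the mitotic genes. Their 19 members had a median log2 fold change of -0.17 with the virus in wild-type CKD hearts and of 0.00 in knockout CKD hearts.
Ccnd1 (cyclin D1), which couples growth factor signals to the cycle, was the clearest change in wild-type hearts. It had 90.9, 111 and 116 CPM in WTCKD and 67.6, 74.1 and 69.7 CPM in WTCKD + RNLS, and fell by 0.59 on the log2 scale (SE 0.11, adjusted p = 0.00799, edgeR). It was called when any 1 of the 6 libraries compared, or WTSHAM replicate 1, was left out. In knockouts its change was 0.00 (SE 0.11), with 88.3, 78 and 79.4 CPM in KOCKD and 83.9, 78.9 and 82.5 CPM in KOCKD + RNLS. Of its exon bases 818 are shared with Oraov1 on the other strand, and whether counting used the strand is not given in the sources used here.
Mcm3, a subunit of the replicative helicase, went from 10.6, 9.92 and 8.59 CPM in WTCKD to 6.43, 5.57 and 6.74 CPM in WTCKD + RNLS (log2 fold change -0.63, SE 0.16, adjusted p = 0.0309, edgeR). All 6 helicase subunits Mcm2 to Mcm7 had values below 0 there, from -0.12 for Mcm4 to -0.63 for Mcm3, and Mcm2 (-0.51) and Mcm7 (-0.38) passed the second rule, as did Tyms, the thymidylate synthase (-1.07). In knockouts Mcm3 was at 9.62, 6.8 and 7.49 CPM against 6.42, 6.70 and 6.93 CPM, with a change of -0.25 (SE 0.16) and an adjusted p of 0.289 (edgeR).
Ccnd2 (cyclin D2), a close relative of Ccnd1, rose in knockouts. It was at 158, 158 and 161 CPM in KOCKD and at 193, 268 and 239 CPM in KOCKD + RNLS, a change of 0.55 on the log2 scale (SE 0.12, adjusted p = 0.00749, edgeR). In wild-type hearts its values overlapped, with 152, 173 and 150 CPM against 146, 161 and 188 CPM (0.06, SE 0.12). With offsets for gene length the rise in knockouts was 0.31 and was not called (adjusted p = 0.115, edgeR), and 2 members, Birc5 and Top2a, were then called. Across all genes those offsets took the number called in knockouts from 2097 to 711, and in wild type from 583 to 739.
The most abundant gene of each of these roles was not called in any comparison by the fit over all 15 libraries. Cdk4 had 51.5, 49.2 and 52.2 CPM in WTCKD, 42.2, 55.5 and 38.5 CPM in WTCKD + RNLS, 50.5, 51.4 and 59.5 CPM in KOCKD and 44.5, 44.8 and 52.8 CPM in KOCKD + RNLS. Pcna had 32.3, 36.4 and 31.3 CPM, then 31.9, 37.8 and 34.9 CPM, then 37.5, 37.3 and 40.8 CPM, and 29.9, 32.9 and 32.6 CPM in the same order of groups. In knockouts Pcna had -0.28 (SE 0.09, adjusted p = 0.0518, edgeR), was called when the fit held only the 6 libraries compared, and had -0.03 with offsets for gene length. The G1 genes not yet given, Ccnd3, Ccne1, Ccne2, Cdk2, Cdk6 and E2f1, had log2 fold changes from -0.47 to 0.77 in wild type and from -0.86 to 0.48 in knockouts, with 0 called. Mcm5, Mcm6 and the ribonucleotide reductase subunits Rrm1 and Rrm2 ran from -0.54 to -0.01 and from -0.25 to 0.05. Mcm4 was higher by the second rule in knockouts (0.39).

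Other genes of the pathway, from lists set beside the members, were read beside them. Of 29 tested genes of 38 listed for other steps of mitosis, 25 were below 0 in wild-type hearts (median -0.67) and 26 in knockout hearts (median -0.79). In wild type 3 fell, namely Racgap1, a cytokinesis regulator (-1.68), Ckap2l (-2.48) and Iqgap3 (-2.63). In knockouts Ckap2l (-2.17) and Cdca3 (-1.61) fell and the condensin subunit Ncapd2 (0.51) rose. Of all genes 2.28% fell in wild type and 6.98% in knockouts, so 2 of 29 in knockouts stands near the background. Other replication genes, 32 of 34 tested, had medians of -0.01 and -0.08, with 0 called in wild type and 1 in knockouts, the DNA polymerase subunit Pole (0.90).
Among 5 of 7 CDK inhibitors tested, Cdkn1a, the p21 inhibitor that halts the cycle, fell in both genotypes. It was at 62.21, 78.6 and 56.93 CPM in WTCKD and at 20.53, 22.65 and 27.71 CPM in WTCKD + RNLS (-1.48, SE 0.27, adjusted p = 0.00673, edgeR). In knockouts it was at 32.27, 60.65 and 22.56 CPM against 17.64, 11.58 and 10.31 CPM (-1.54, SE 0.28, adjusted p = 0.00338, edgeR). So an inhibitor and the genes of mitosis were both lower.
Of 19 checkpoint and anti-proliferative genes tested of 20, Wee1 rose in both genotypes. The WEE1 kinase holds back CDK1, and its gene is a known target of the circadian clock. Wee1 was at 11.58, 8.91 and 9.96 CPM in WTCKD and at 24.2, 26.65 and 29.86 CPM in WTCKD + RNLS (1.40, SE 0.25, adjusted p = 0.00602, edgeR), and at 7.26, 11.18 and 10.71 CPM against 23.49, 25.57 and 24.64 CPM in knockouts (1.34, SE 0.25, adjusted p = 0.00382, edgeR). Trp53, which encodes p53, fell in wild type (-0.58), and the damage kinase Atm rose in knockouts (0.76). Of 16 tested genes for the RB family, E2F partners and DREAM of 17 listed, 0 were called in wild type and Tfdp2 (0.64) and E2f8 (2.38-fold) rose in knockouts. With 9.07% of all genes called higher in knockouts, 2 of 16 and 2 of 19 in these lists stand near the background.

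The summed level of the mitotic genes depended on Cenpf, their most abundant member. Over all 21 mitotic genes it was 47.9, 68 and 60 CPM in WTCKD and 45.6, 39.2 and 49.2 CPM in WTCKD + RNLS, which overlap, and 55.3, 39.8 and 61.4 CPM in KOCKD against 60.2, 55.4 and 51.4 CPM in KOCKD + RNLS, where the mean was higher with the virus (55.7 against 52.2 CPM). Over the 20 genes other than Cenpf, which was set aside after its values were seen, WTCKD had 33.5, 51.1 and 43.5 CPM and WTCKD + RNLS 13.8, 24 and 13.8 CPM, and the knockout libraries had 33.8, 30.2 and 30 CPM without the virus and 19.3, 12.1 and 14.7 CPM with it. The second set of sums is a description only, since Cenpf was left out on these values.
Cell type markers differed in the same comparisons. The counts of markers and clock genes called stand against all genes tested. Of those, 2.28% fell and 2.18% rose in wild type, and 6.98% fell and 9.07% rose in knockouts. Of 8 cardiomyocyte markers 1 rose in wild type (median 0.22) and 3 in knockouts (median -0.05), and their summed level was 87300 to 101000 CPM in WTCKD, 109000 to 117000 CPM in WTCKD + RNLS, 88000 to 94800 CPM in KOCKD and 102000 to 105000 CPM in KOCKD + RNLS, without overlap in either genotype. Of 3 epicardial and mesothelial markers tested of 5, 1 fell in wild type (median -6.58) and 0 in knockouts (-0.57). Sums over the 5 were 9.96 to 23.2 CPM in WTCKD and 3.9 to 6.04 CPM in WTCKD + RNLS. In knockouts they were 3.73 to 6.12 CPM in KOCKD and 3.65 to 6.34 CPM in KOCKD + RNLS.
Of 9 endothelial markers 5 fell in wild type (median -0.50) and 3 in knockouts (-0.26), and their summed level was 1880 to 2210 CPM in WTCKD, 1400 to 1560 CPM in WTCKD + RNLS, 1890 to 2230 CPM in KOCKD and 1610 to 1620 CPM in KOCKD + RNLS. Of 8 fibroblast markers 3 and 2 fell (medians -0.44 and -0.26), with sums of 1270 to 1890, 932 to 1130, 1100 to 1440 and 896 to 1040 CPM in the same order. Of 9 macrophage markers 0 and 2 fell (-0.34 and -0.30), with sums of 436 to 591, 403 to 437, 394 to 475 and 295 to 387 CPM. Medians of the endothelial, fibroblast and macrophage markers were nearer to 0 than those of the mitotic genes. The epicardial and mesothelial median was further from 0 than the mitotic one in wild type (-6.58) and nearer in knockouts (-0.57). The part of these cell types in the fall of the mitotic genes was not tested. Their defining genes were present in all groups. Of 8 T and NK cell markers listed, 7 were in the count table and 1 was tested, at -0.03 in wild type and 0.18 in knockouts. Of the 7, Cd3e, Nkg7 and Ncr1 had under 10 counts in every library.
Of 12 clock genes 3 fell and 6 rose in wild type, and 2 fell and 6 rose in knockouts. Arntl, which encodes the clock activator BMAL1, was at 30.52, 30.76 and 34.04 CPM in WTCKD and 1.34, 1.86 and 2.45 CPM in WTCKD + RNLS, and at 23.35, 24.5 and 9.99 CPM against 1.63, 1.49 and 1.41 CPM in knockouts. The time of day of tissue collection is not given in the sources used here. Chamber and blood markers also varied. All 5 tested atrial genes were below 0 in both genotypes, with medians of -2.87 in wild type and -7.38 in knockouts. Of these, 3 were called lower in KOCKD + RNLS. The atrial medians were further from 0 than those of the mitotic genes. All 6 tested erythroid genes were above 0 in WTCKD + RNLS (median 2.76), while in KOCKD + RNLS 3 were below and 3 above 0 (median -0.06). The part of these genes in the fall of the mitotic genes was not tested.

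**Figure D4:**
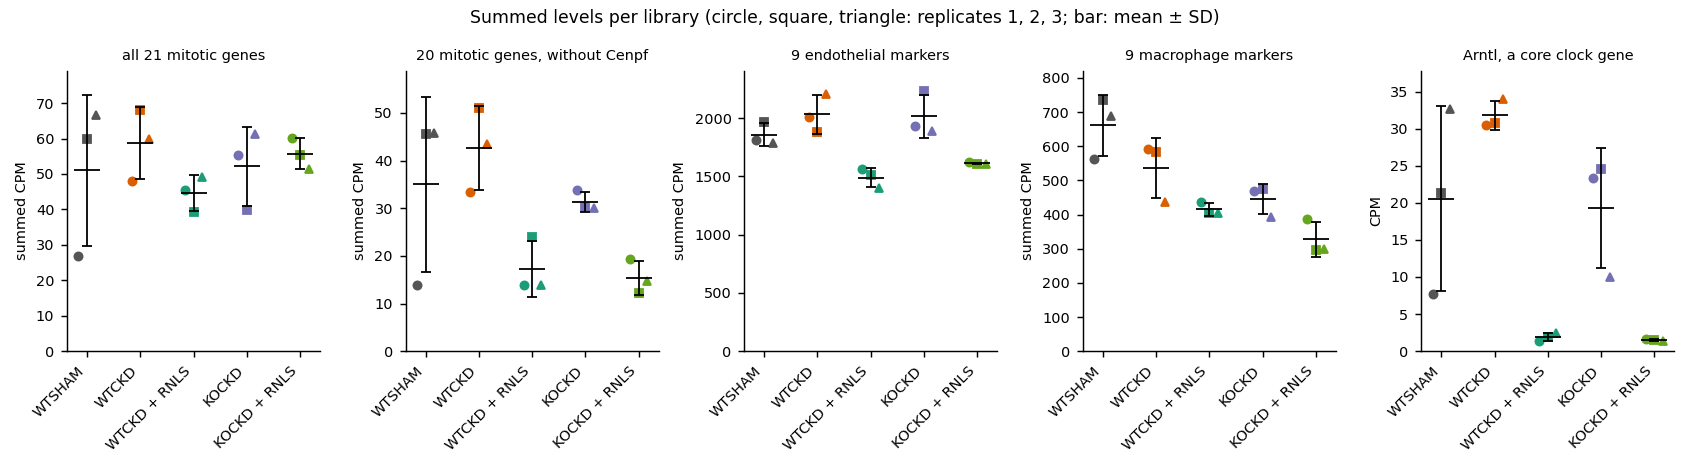
Summed CPM of all 21 mitotic genes, of the 20 without Cenpf, of 9 endothelial and 9 macrophage markers, and CPM of Arntl, in each library by group, with circle, square and triangle for replicates 1, 2 and 3 and the bar for mean ± SD of 3 libraries. Over all 21 genes the mitotic sum was 39.2 to 60.2 CPM with the virus and 39.8 to 68 CPM in the CKD controls, and without Cenpf it was 12.1 to 24 CPM and 30 to 51.1 CPM. The sham library lowest in both sums also had the lowest Arntl of its group, 7.67 CPM.

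The comparison of WTCKD with WTSHAM asks whether CKD together with the vector moved these genes. The paper names no vector for WTSHAM mice, so CKD and the vector cannot be told apart here. No member was called with all libraries or with any 1 of the 6 libraries compared left out, and the sign of the small median difference depended on 1 sham library. Of 38 members 0 were called by edgeR at an adjusted p under 0.05 (3 at an unadjusted p under 0.05) and 0 by DESeq2, which gave 5 of them no adjusted p, where 1.68% of all genes fell and 0.597% rose. The median log2 fold change was 0.13, with 28 above 0, and that of all genes was -0.01. By the second rule 1 member was higher, Cdc20, and 0 were lower, against 3.64% and 7.62% of all genes. Groups did not overlap in 4 members that were higher and 0 that were lower, against 10.3% and 12.2%.
Cdc20 had 1.17, 1.05 and 1.84 CPM in WTSHAM and 1.94, 3.21 and 2.55 CPM in WTCKD (0.91, SE 0.32, adjusted p = 0.142, edgeR), so each CKD library was above each sham library by a margin of few counts.
Mki67 showed the split within the sham group, with 12, 159 and 173 counts, or 1, 12 and 12.7 CPM. Top2a had 1.75, 5.49 and 5.30 CPM in the same libraries, and Prc1 had 0.917, 2.11 and 2.5 CPM. WTSHAM replicate 1 was also below all 3 WTCKD libraries in 18 of the 19 mitotic genes, against 29.5% of all genes tested. Its summed level over all 21 mitotic genes was 26.8 CPM, against 60 and 66.5 CPM in the other 2 sham libraries, and without Cenpf it was 13.8 CPM against 45.5 and 45.8 CPM. In the clock the same library differed in the direction of the virus groups, with Arntl at 7.67 CPM against 21.35 and 32.59 CPM, and Wee1 at 19.34 CPM against 8.04 and 8.97 CPM. Whether this bears on the mitotic genes was not tested. In the count table, the column names of this library and of all libraries with the virus begin with WM or RM. Those of the other sham libraries begin with WT, those of WTCKD with wm and those of KOCKD with s. What these names stand for is not given in the sources used here.
Without that library the median of the members was -0.08, with 23 of 38 below 0 and 0 called, and 12 of 19 mitotic genes were below 0. Without WTSHAM replicate 2 the median was 0.32. Cdc20 was at 0.82 without replicate 1.
The other members with values in each library had these sham levels. Ccnd1 was at 87.1, 103 and 74.3 CPM in WTSHAM, Ccnd2 at 137, 159 and 170 CPM, and Mcm3 at 7.67, 8.95 and 7.72 CPM. Cdk4 had 39.5, 45.3 and 40.5 CPM and was the G1 gene whose groups did not overlap, with 0.29 (SE 0.12, adjusted p = 0.224, edgeR). In WTSHAM Pcna had 37.9, 39.8 and 34.9 CPM, Cenpf 13, 14.5 and 20.7 CPM and Birc5 0.417, 0.752 and 0.883 CPM.

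**Figure D5:**
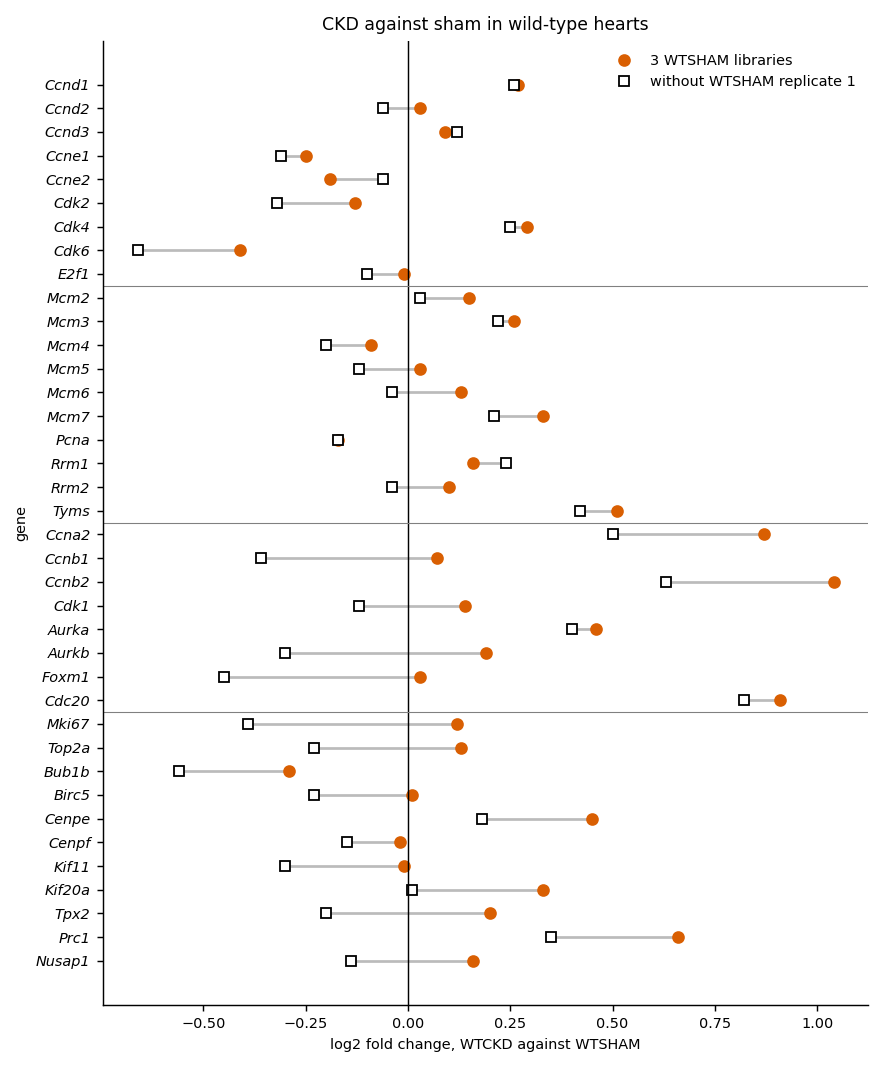
Log2 fold change of WTCKD against WTSHAM for the 38 genes with all 3 sham libraries (filled circles) and without WTSHAM replicate 1 (open squares), with lines between the 4 roles. Most mitotic genes shifted left when that library was left out, Mki67 from 0.12 to -0.39 and Foxm1 from 0.03 to -0.45, while Ccnd1 and Pcna stayed in place.

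The comparison of KOCKD with WTCKD asks what the loss of Rnls did in CKD. Genotype and column names also changed together here, so the genotype and what the names stand for cannot be told apart. Of all 13064 genes 0 were called by edgeR (0%; 1320 at an unadjusted p under 0.05) and 8 by DESeq2, and 0 of the 38 members were called by either tool (4 at an unadjusted p under 0.05 by edgeR), though DESeq2 gave 25 of them no adjusted p. Members had a median of -0.21, and 16 of 19 mitotic genes were below 0 with a median of -0.33. By the second rule 2 members were lower, Ccnd1 (-0.37, SE 0.11) and Tyms (-1.03, SE 0.31), and 1 was higher, Ccne1 (cyclin E1; 0.97, SE 0.38), each with an adjusted p between 0.444 and 0.46 (edgeR). The background for that rule was 3.7% lower and 1.94% higher. Groups did not overlap in 5 members that were lower, Mki67 and Cdc20 among them, and in 2 that were higher, against 9.48% and 9.77% of all genes.

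Whether the effect of the virus differed between genotypes was tested as an interaction. Of all genes 0 were called by edgeR (0%), as were 0 members, of which 7 had an unadjusted p under 0.05. DESeq2 called 363 genes, of which 1 was a member, Ccnd1, and gave 31 members no adjusted p. Its difference of the log2 fold changes, knockout minus wild type, was 0.59 (SE 0.16, adjusted p = 0.127, edgeR). By the second rule 5 members were higher in the knockout effect (Mcm2, Tyms, Ccnd1, Ccnd2 and Cdk6) and 2 lower (Pcna and Birc5), against 6.84% and 8.36% of all genes. Among the mitotic genes, the difference was -0.13 (SE 0.61) for Top2a, 0.44 (SE 0.79) for Prc1 and 0.48 (SE 0.85) for Mki67, each smaller than its standard error.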

How the data were processed

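RNA-seq of mouse heart gave 15 libraries in 5 groups of 3, taken from the labels. Per the labels and the study's methods, total RNA was made into stranded TruSeq libraries, and reads were trimmed with Trimmomatic, aligned with HISAT2, and counted with HTSeq, with FPKM from Cufflinks. The build is named as GRCm39 in the submitters' processing notes and as mm9 in the supplement, so gene positions are those of GENCODE M1 on mm9. The methods name 2 sequencing platforms, and which library ran on which is not given in the sources used here.

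The authors deposited raw gene counts and FPKM values. The deposited FPKM equalled count over length and total, and served only to compare levels between genes. Counts were tested with edgeR 4.0.16 (R 4.3.3): TMM scaling, genes with 10 or more counts in 3 or more libraries, 1 quasi-likelihood fit of group over all 15 libraries, and Benjamini-Hochberg adjustment over 13064 genes. Fold changes are log2. The common biological coefficient of variation was 0.132. DESeq2 1.42.0, other filters and scaling, a replicate block and omission of each library were alternatives, and the pipeline was tested on simulated data. Values in every library are printed for members called in any comparison, for Mki67 and Top2a, and for the most abundant member of each role. Of the pathway lists up to 3 called genes per comparison are named. The members, roles and lists were chosen with earlier results of these data known.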

Additional observations from a re-analysis of the deposited data

How the results depend on the processing

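Under scaling, filter, tool, block and length alternatives and single omissions, all 124 values of the called genes had the same direction and 94 passed the threshold. These genes were picked by the main fit and the alternatives share its libraries, so an unchanged direction was likely beforehand. Settings in which a gene was not tested or had no adjusted p were not counted. For WTCKD against WTSHAM the median of the members ran from -0.08 (without WTSHAM replicate 1) to 0.32 (without WTSHAM replicate 2). The number called for WTCKD + RNLS against WTCKD ran from 1 (without WTCKD replicate 2, WTCKD + RNLS replicate 1 or WTCKD + RNLS replicate 3) to 6, and for KOCKD + RNLS against KOCKD from 1 (without KOCKD + RNLS replicate 2) to 7 (without WTSHAM replicate 1, an omission added after seeing the data). In the latter comparison it was 8 with only the libraries of the groups compared and 2 with gene length offsets, also added after seeing the data. The DESeq2 interaction called 1 member. Same-numbered libraries shared only a number, with correlations from -0.36 to 0.23, and a replicate block gave 4 and 6 called members with the virus in wild type and knockout. The cause of these shifts was not tested. Low counts limit the mitotic genes, 16 of 21 of which had a median under 20 counts over the libraries.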
